A study of Ptychodera flava with 31 samples.

Results

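Among 35854 transcript models of the acorn worm Ptychodera flava, 200 were taken as the transcripts that peaked in transforming larvae, the animals that are changing from the planktonic larva into the juvenile worm. A transcript was a member when its mean level in TPM (a level scaled for transcript length and library size) was higher in transforming larvae than at any of the other 15 stages and at least 10 TPM there. The unfertilized egg, every stage up to the Spengel larva, and the adult also had to stay at or below 20% of that level. The rule was met by 239 transcripts, of which the 200 with the highest level in transforming larvae were kept. They were thus chosen by their measured stage means in TPM over all 31 libraries, and these values are given below as a description and not as a finding. The Agassiz larva, the stage just before transformation, had only to lie below the transforming larva, so that how far each transcript had already come on in Agassiz larvae was left largely free by the rule.

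Acorn worms are hemichordates, marine deuterostomes related to sea urchins and starfish. Their larva, the tornaria, swims and feeds with bands of cilia. The named tornaria stages Heider, Meschnikoff, Krohn and Spengel follow its growth, and the Agassiz larva is the late stage from which animals settle. In metamorphosis the larva sinks, gives up its feeding bands and takes on the body of the burrowing worm, with proboscis, collar and trunk. The files give the transcripts only numbered identifiers. None of these, 0 of 35854, occurred in the RefSeq gene table of 38920 entries for this species, so no gene name, sequence or role can be given to any member.

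All animals were wild type and were taken whole. Unfertilized eggs, transforming larvae and the adult stage had 1 library each, and early and mid1 gastrulae had 3 each. The other stages had 2 each: the 16-32 cell embryo, the early and the late blastula, the mid2 and the late gastrula, the tornaria of 72hpf (hours post fertilization), the Agassiz larva, and the Spengel, Krohn, Meschnikoff and Heider tornariae. Mid1 and mid2 are mid gastrulae in which the mesoderm had not yet, or had already, migrated. Libraries are described as biological replicates with no word on parents, cultures or pooling, and a p-value here covers no more than the spread among these libraries, which may be technical.

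Total estimated counts per library ran from 11539946 to 17288661. The single transforming larvae library held 15389682, and the Agassiz libraries 14614662 and 16854216. In whole animals, a lower level can come from fewer cells of a type or from less RNA per cell, and these cannot be told apart. Since transforming larvae had 1 library, the height of every peak rests on that library.

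Together the 200 transcripts held 3.85% of all TPM in transforming larvae, and hardly any before the Agassiz stage. Their summed level was 90.2 TPM in the egg and 38460.1 TPM in transforming larvae. From the egg to the late gastrula, every library lay between 67.8 and 295.8 TPM. The 72hpf tornaria libraries held 284 and 312 TPM, the Meschnikoff libraries 315 and 325 TPM, and the Krohn libraries 501 and 462 TPM. The sum was 1629 and 838 TPM in the Spengel libraries, then 17400.2 and 19603 TPM in the Agassiz libraries, and 1856 TPM in the adult. Both Agassiz libraries thus stood more than 10 times above every earlier library, and the adult was back near the level of the higher Spengel library. The rule fixed the low sums before Agassiz and in the adult.

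**Figure D1:**
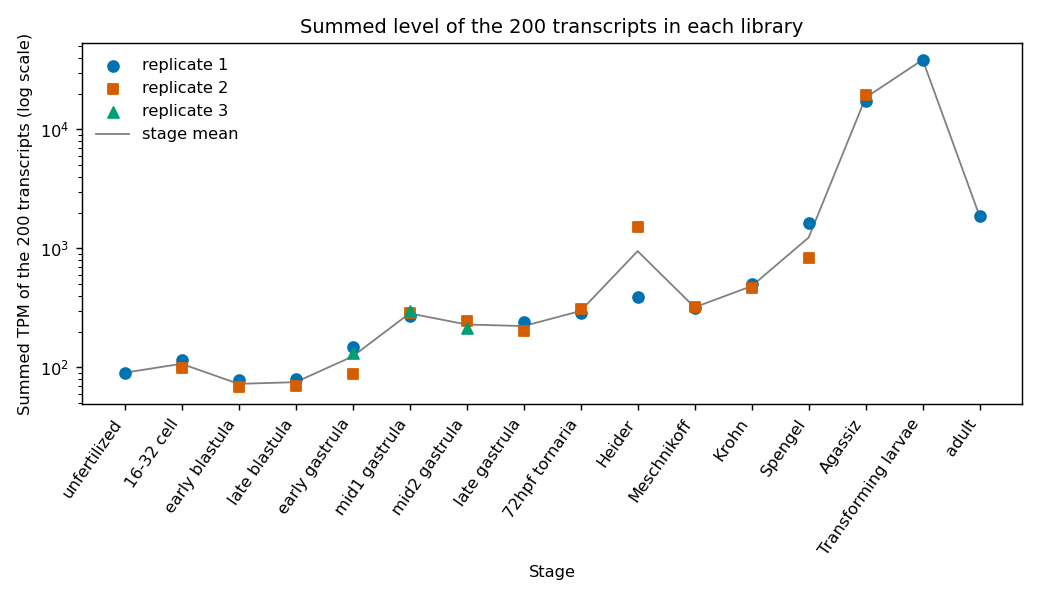
Summed TPM of the 200 transcripts (log axis) in each of the 31 libraries, by stage, with colour and shape for the replicate number and a line through the stage means. The Agassiz libraries sit at 17400.2 and 19603 TPM and the transforming larvae at 38460.1 TPM, while Heider replicate 2 and Spengel replicate 1 lie above their partners.

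Levels in transforming larvae were uneven. The lowest member had 16.8 TPM, the median was 47.5 TPM (quartiles 28.1 and 104.5) and the highest 9563 TPM. Among them 53 reached 100 TPM. The most abundant transcript alone made up 24.9% of the summed level, and the 10 most abundant 55.6%. Estimated counts behind these levels had a median of 962, with 5 members under 100 counts and 12 as the lowest, for a model of 210 bases, TCONS_00006562.

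Near the limits of the rule the choice was close. The last transcript kept had 16.8 TPM in transforming larvae and the first not kept 16.4 TPM. The member nearest to the limit had a stage at 19.98% of its transforming larvae level, and the nearest transcript outside had one at 20.02%. A further 41 transcripts of the same abundance kept to the 20% limits but were as high or higher in Agassiz larvae, from 100.7% of the transforming larvae level upwards, while the highest member stood at 98.1%.

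Most of the 200 transcripts were already above 20% of their transforming larvae level in the Agassiz larva. The Agassiz mean had a median of 36.7% of the transforming larvae level (quartiles 16.6% and 60.4%), against 2.01% in Spengel larvae. The same median was 98.0% over all 10813 transcripts with at least 10 TPM in transforming larvae. It was 68.6% over those highest in transforming larvae but over the 20% limit. Over those low up to Spengel that kept at least 50% of the level in the adult, it was 49.3%. So an Agassiz level is not particular to the members. Their Agassiz mean was above 50% for 73 members, between 20% and 50% for 68, and at or below 20% for 59. For 16 members the Agassiz mean was at most 5%, of which 4 were at most 1%. Agassiz was the second-highest stage of 182 members, the adult of 14, and an earlier stage of 4. Calling all 200 a pulse of the transforming larva therefore describes their peak, and 59 of them were also low in Agassiz by the 20% measure applied to the other stages.

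**Figure D2:**
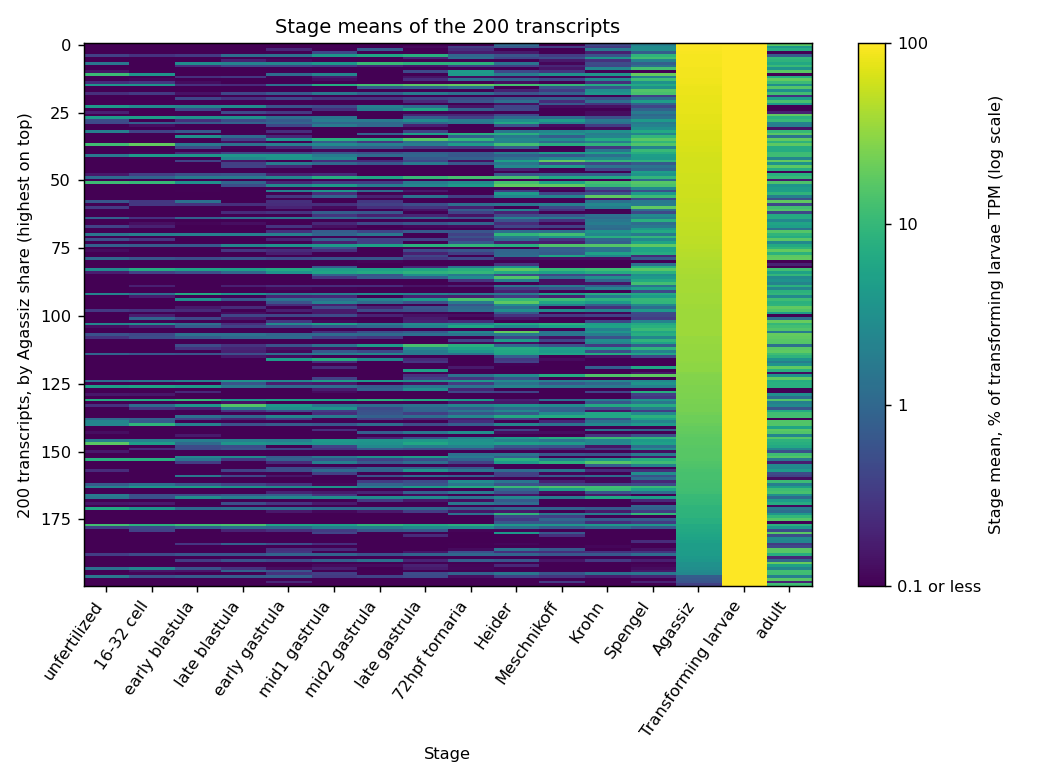
Stage means of each of the 200 transcripts as a percentage of the transforming larvae TPM (colour, log scale, values at or below 0.1% in the darkest colour), ordered from the highest to the lowest Agassiz share, with rows counted from 0 on the vertical axis. The Agassiz column grades from 98.1% to 0.37%, and the columns before Spengel have medians of at most 0.62%.

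The 2 transcripts most abundant in transforming larvae differed in how far they had come on in Agassiz larvae. TCONS_00001713, a model of 300 bases, had 9563 TPM in transforming larvae and 6299 and 7898 TPM in the Agassiz libraries, against 210 and 196 TPM in Spengel larvae and 182 TPM in the adult. It was also present earlier: its 3 mid1 gastrula libraries held 166, 178 and 147 TPM, above the 25.9 to 70.5 TPM of the early gastrula and the 18.7 and 17.8 TPM of the late gastrula. This gastrula level stayed at less than 2% of the later peak. TCONS_00025325, of 408 bases, had 2691 TPM in transforming larvae but only 315 and 155 TPM in the Agassiz libraries, which overlapped the 473 and 39.9 TPM of the Spengel libraries. It had 106 TPM in the adult, and at most 2.39 TPM in any of the 17 libraries up to the late gastrula.

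Some transcripts were as high in Agassiz as in transforming larvae within the spread of the libraries. TCONS_00009298, of 2089 bases, had 60.8 and 74.7 TPM in the Agassiz libraries and 69.0 TPM in transforming larvae. The transforming larvae value fell between the 2 Agassiz values. TCONS_00010421, of 1380 bases, had 63.4 and 69.9 TPM in Agassiz larvae and 69.4 TPM in transforming larvae. Both had at most 3.28 TPM in every library from the egg to Spengel, and 11.7 and 2.77 TPM in the adult.

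At the other end, TCONS_00030674 and TCONS_00006415 were nearly silent in Agassiz larvae. TCONS_00030674, of 2213 bases, had 2.84 and 0.232 TPM in the Agassiz libraries, 418 TPM in transforming larvae and 48.6 TPM in the adult. Its highest library from the egg to Krohn stood at 0.418 TPM. TCONS_00006415, of 2111 bases, had 0.0506 and 1.12 TPM in Agassiz larvae, 97.5 TPM in transforming larvae and 0.190 TPM in the adult. The first kept 11.6% of its peak in the adult and the second 0.195%, so that these transcripts, alike before the peak, differed after it. With 1 adult library this difference has no replicate check.

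**Figure D3:**
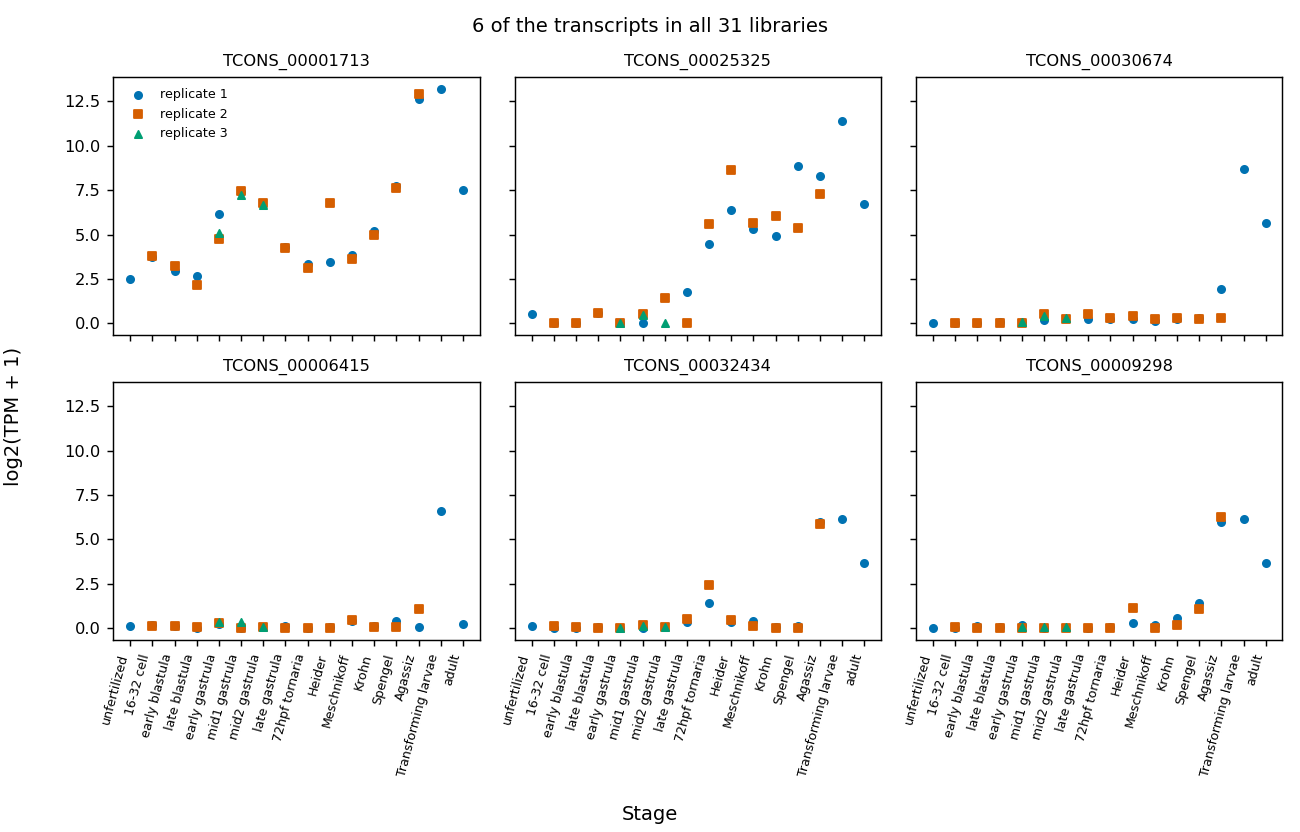
log2(TPM + 1) of 6 transcripts in all 31 libraries, 1 panel per transcript, with colour and shape for the replicate number. TCONS_00001713 is present from the egg on, TCONS_00025325 from the 72hpf tornaria, and TCONS_00030674 and TCONS_00006415 reach 418 and 97.5 TPM in transforming larvae after at most 2.84 TPM in any earlier library.

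The step from Agassiz to transforming larvae was fitted with edgeR's quasi-likelihood test over 30661 transcripts, taking the spread of the lone transforming larvae library from the stages with replicates. Calls needed a change of at least 2-fold and an adjusted p (Benjamini-Hochberg) under 0.05. Of the 200 members, 43 were called higher in transforming larvae and 0 lower, where 0.998% of all transcripts were called higher and 1.37% lower (2.36% in all). The rule used this contrast, so nothing is read from that count. The fitted log2 fold change had a median of 1.56 over the members and 0.05 over all transcripts tested. The largest was that of TCONS_00030674 at 8.25 (SE 0.71), and the next that of TCONS_00006415 at 7.42 (SE 1.01), both named for their low Agassiz share and given as a description. With either Agassiz replicate left out, fewer members were called, and so was a smaller share of all transcripts.

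Both Agassiz libraries held the transcripts, at levels that differed somewhat between them. Replicate 2 was the higher for 134 members and replicate 1 for 66. At least 50% of the transforming larvae level was reached by 58 members in replicate 1 and by 79 in replicate 2. In replicate 1, 1 member exceeded its transforming larvae level, and in replicate 2, 12 did. Across the 200 members Pearson's r between the libraries on log2(TPM + 1) was 0.955, against 0.980 across all transcripts, as a description of this pair of libraries.

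Of 139 members with at least 10 TPM in an Agassiz library, 6 differed by more than 3 times between the replicates, 2 of them higher in replicate 1 and 4 in replicate 2. The most uneven was TCONS_00051717, of 1053 bases, with 0.456 and 13.0 TPM in Agassiz larvae, 67.0 TPM in transforming larvae and 4.88 TPM in the adult. TCONS_00001999, of 891 bases, had 6.57 and 28.8 TPM in Agassiz larvae and 41.8 TPM in transforming larvae, and was listed at 0 in the adult. The Agassiz level of TCONS_00051717 thus rests on replicate 2, while TCONS_00001999 was present in both and higher in replicate 2.

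**Figure D4:**
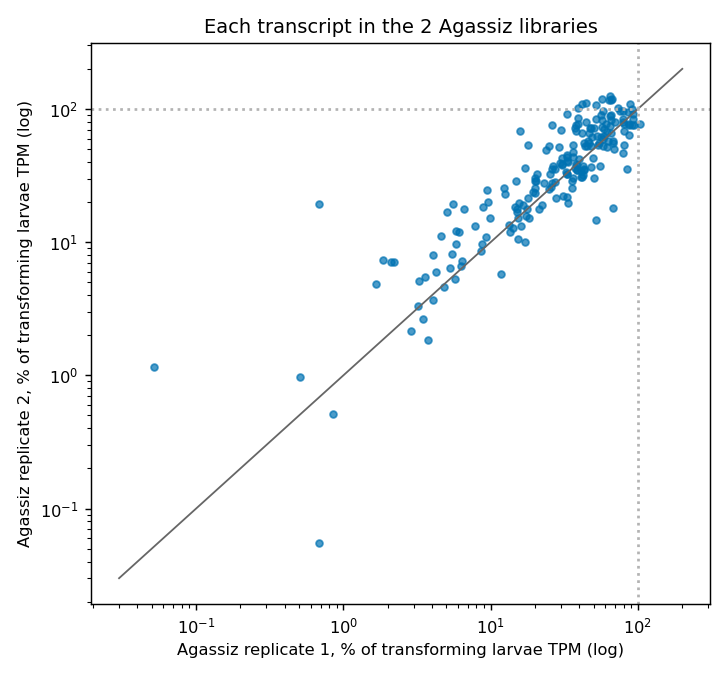
Each of the 200 transcripts in Agassiz replicate 1 (horizontal) and replicate 2 (vertical), as a percentage of its transforming larvae TPM on log axes, with the line of equality and dotted lines at 100%. Of the 200 points 134 lie above the line of equality, and 12 lie above 100% in replicate 2.

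From Spengel to Agassiz larvae, 169 of the 200 members were called higher and 0 lower by edgeR, where 8.14% of all transcripts were called higher and 8.44% lower (16.6% in all). The rule held Spengel but not Agassiz to 20%, which tilts this contrast upwards, so the count is a description. The fitted log2 fold change had a median of 4.06 over the members and -0.01 over all transcripts. With the 12 members that had 0 Spengel counts set to their lower bound (3 counts over both libraries), the median log2 ratio of pooled levels was 4.0.

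TCONS_00032434, of 2839 bases, had 2 counts over both Spengel libraries and 3477 in the Agassiz libraries, at 62.8 and 57.7 TPM. The ratio was 1904 with an exact 95% counting interval of 527 to 15732. TCONS_00032440, a short model of 272 bases, had 1 count in Spengel larvae and 611 and 165 TPM in the Agassiz libraries, a ratio of 845 (151 to 33403). It reached 910 TPM in transforming larvae and was listed at 0 in the adult. Intervals and bounds cover counting error only.

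TCONS_00025325 stood apart from this pattern. Its fitted log2 fold change from Spengel to Agassiz was -0.07 (SE 0.86), the lowest among the members, with a Spengel mean of 256 ± 306 TPM and an Agassiz mean of 235 ± 113 TPM (SD, n = 2 each).

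At every stage before Spengel most members had less than 1 TPM, and their highest stage before Agassiz varied. At a stage mean of 1 TPM, 22 members were detected in the egg, 21 in the early gastrula, 45 in the 72hpf tornaria, 62 in Krohn, 107 in Spengel and 195 in Agassiz. Under 1 TPM at every stage from the egg to Spengel were 68 members, and 101 were so up to Krohn. None was at 0 counts in all libraries before Agassiz. The highest stage before Agassiz was Spengel for 96 members and Heider for 23, while for 15 it was the egg or the 16-32 cell embryo. Levels of 10 TPM or more were reached by 3 members at some stage from egg to late blastula and by 5 at a gastrula stage. In Heider 10 members reached that level, in Krohn 13 and in Spengel 21.

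Between the early and the late tornaria, more of the members rose than fell. This was compared as the mean of the Krohn and Spengel stages against that of the 72hpf tornaria and Heider. The rule held both sides to the same limit and named no direction. It did use these stages, and Krohn and Spengel lie nearer to the peak, so the counts are a description. By edgeR 63 of the 200 members rose, where 16.7% of all transcripts tested were called higher, and 14 fell, where 8.14% were called lower (24.8% in all). All 200 members entered this fit, many through their level in Agassiz or transforming larvae. With only the libraries compared, 118 members passed the filter on low counts, of which 45 rose (38.1%) and 11 fell (9.32%), against 17.9% and 8.57% of all transcripts tested there. These 118 are not all members. The median fitted log2 fold change was 0.92 over the members and 0.00 over all transcripts. Without Heider replicate 2, 59 rose and 9 fell, against 15.3% and 7.48% of all transcripts. Among the members, 61 had 0 counts at 1 or more of these 4 stages, and fitted changes of such transcripts depend on the prior count; with sides at 0 set to 3 counts, the median log2 ratio of pooled levels was 0.88 over the 186 members above that floor and -0.05 over all transcripts.

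TCONS_00027552, of 2287 bases, was among those that rose. It had 0 and 0 TPM in the 72hpf tornaria libraries, 0.119 and 0 TPM in Heider, 1.09 and 3.54 TPM in Krohn, and 11.7 and 12.2 TPM in Spengel, on the way to 54.1 and 113 TPM in Agassiz larvae and 94.6 TPM in transforming larvae. It was named among called transcripts whose late libraries all lay above the early ones. This separation and its low edgeR adjusted p were thus set by the choice. The pooled late level was 204 times the early one (69.4 to 991 by counting error, edgeR adjusted p = 3.50e-05), and DESeq2's Wald test gave an adjusted p of 0.124. TCONS_00032647, of 1116 bases, had 4.91 and 0.198 TPM in Krohn and 23.1 and 13.8 TPM in Spengel after 1 count in the 4 early libraries. Its ratio was 397 (70.9 to 15727, edgeR adjusted p = 0.000699), and DESeq2's Wald test gave an adjusted p of 0.303. TCONS_00032647 was named by the same choice.

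The members that fell between the early and the late tornaria made up 7% of the 200, beside the 8.14% of all transcripts. TCONS_00032434 had 1.62 and 4.31 TPM in the 72hpf tornaria libraries and 0.250 and 0.379 TPM in Heider, but at most 0.07 TPM in each Krohn and Spengel library, which together held 3 counts. The early level was 67.8 times the late one (22.9 to 332 by counting error, edgeR adjusted p = 2.56e-05). TCONS_00009161, of 360 bases, fell from 10.7 ± 3.55 to 1.35 ± 1.10 TPM (SD over the libraries of both stages of a side, n = 4 each), which is -3.11 on the log2 scale (SE 0.63, edgeR adjusted p = 0.000747). It then had 106 and 153 TPM in Agassiz larvae, 532 TPM in transforming larvae and 36.4 TPM in the adult. Both transcripts were named among called ones whose early and late libraries did not overlap. That separation and the low adjusted p-values were thus set by the choice and are a description.

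Between the gastrula and the growing tornaria, more members also rose than fell, as did all transcripts tested. The rule used these stages as well, and the larvae lie nearer to the peak, so these counts are again a description. For the mean of the 5 stages from 72hpf tornaria to Spengel against that of the 4 gastrula stages, 62 members rose and 17 fell by edgeR, where 29.6% of all transcripts were called higher and 17.1% lower (46.7% in all). The 62 are 31% and the 17 are 8.5% of the 200 members. With only the libraries compared, 129 members passed the filter, of which 59 rose (45.7%) and 14 fell (10.9%), against 32.9% and 17.2% of all transcripts tested there. Over both directions, 39.5% of the 200 members were called against 46.7% of all transcripts, but 56.6% of the 129 against 50.1%. The order of these shares thus depended on the filter and also on how stages at 0 were fitted. With the stages of each side joined into 1 coefficient, a fit chosen after seeing the data because 98 members had 0 counts at 1 or more of these stages, 94 rose (47%) and 17 fell (8.5%), against 33.2% and 17.2% of all transcripts. With 1 coefficient per stage, a stage at 0 can void the contrast, and 27 of those 98 members were called. TCONS_00027552, with 658 larval counts and 1 gastrula count, was not called there. The median fitted log2 fold change was 1.12 over the members and 0.35 over all transcripts, and 1.62 and 0.33 as the ratio of pooled levels with sides at 0 set to 3 counts.

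TCONS_00025325 rose from 0.492 ± 0.855 TPM in the gastrula libraries (SD, n = 10) to 124 ± 165 TPM in the larval ones (SD, n = 10), which is 7.54 on the log2 scale (SE 0.76, edgeR adjusted p = 1.73e-07). TCONS_00005717, of 657 bases, rose from 0.127 ± 0.177 to 5.13 ± 2.83 TPM (SD, n = 10 each), which is 5.11 on the log2 scale (SE 0.53, edgeR adjusted p = 2.16e-07). Both were named among called transcripts whose larval and gastrula libraries did not overlap, so their low adjusted p-values were set by the choice. These SD take in differences between the stages of a side as well as between replicates. Same-numbered libraries of some of these stages may share a source, which the adjusted p-values do not take into account.

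A few abundant members made up much of the sum in 1 Heider and 1 Spengel library. Heider replicate 2 held 1503 TPM of the 200 transcripts and replicate 1 held 394 TPM. Without the 5 members that were more than 3 times higher in replicate 2, the sums were 284 and 241 TPM. Without the same 5 members, Spengel replicates 1 and 2 held 709 and 572 TPM, against 1629 and 838 TPM with them. Of these 5, 3 were also more than 3 times higher in Spengel replicate 1 than in Spengel replicate 2: TCONS_00025325, TCONS_00015795 and TCONS_00015796, named after their values were seen. TCONS_00015795, of 670 bases, had 28.7 and 431 TPM in the Heider libraries, 142 and 8.18 TPM in the Spengel libraries, 491 and 372 TPM in the Agassiz libraries and 1198 TPM in transforming larvae. TCONS_00015796, of 983 bases, had 23.5 and 262 TPM in Heider, 73.4 and 4.87 TPM in Spengel, 478 and 286 TPM in Agassiz and 946 TPM in transforming larvae. For these transcripts 1 library of a stage was high and the other low. Over all models with at least 10 TPM in a Heider library, 363 of 12384 were more than 3 times higher in replicate 2 and 547 in replicate 1. With at least 10 TPM in a Spengel library, 170 of 12462 were more than 3 times higher in replicate 1 and 46 in replicate 2.

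After transformation the 200 transcripts were low in the 1 adult library, as the rule required, but most still had at least 1 TPM. The adult level had a median of 6.91% of the transforming larvae level (quartiles 2.02% and 12.1%). In the adult 10 members were at 0, 145 had at least 1 TPM and 39 at least 10 TPM. The adult lay above the Spengel mean for 139 members and above the Agassiz mean for 15. Of all limited stages it was the adult that came closest to the 20% limit for 123 members, and Spengel for 39.

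How much of the peak was left in the adult varied among transcripts with any Agassiz share. The median adult level was 4.13% of the peak for the 59 members at or below 20% in Agassiz, 8.17% for the 68 between 20% and 50%, and 7.14% for the 73 above 50%. Members at or below 20% in Agassiz were also the lowest in Spengel, with a median of 0.280% against 3.51% and 2.88%. Median levels at the peak were 51.9, 44.5 and 61.5 TPM in that order. These groups were cut after the values were seen and were not tested.

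**Figure D5:**
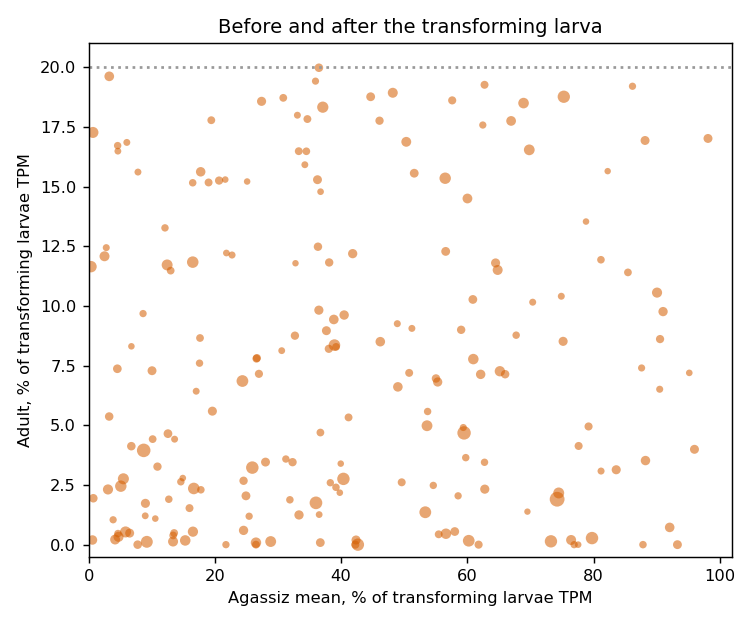
Agassiz mean (horizontal) against adult level (vertical) of each of the 200 transcripts, both as a percentage of its transforming larvae TPM, with larger points for higher transforming larvae TPM and a dotted line at the 20% limit of the rule. Points with an adult level near 0 and near 20% occur at low and at high Agassiz shares.

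Identifier numbers and fractional counts were not used by the rule. Of the 200, 44 (22%) had a member with the next or the previous identifier number, in 19 runs of 2 and 2 runs of 3. The same share was 11.1% of 144 transcripts that peaked in Agassiz under the same limits, 13.3% of 225 that met the limits up to Spengel but kept at least 50% of the transforming larvae level in the adult, and 14% of 1186 that were highest in transforming larvae but over the 20% limit. It was 53.6% of the 10813 transcripts with at least 10 TPM in transforming larvae and 88.2% of all models. Such a share depends on how many transcripts a list holds, so these lists are not directly comparable. What the numbering follows is not given in the sources used here. Within the 23 neighbouring pairs the Agassiz share differed by a median of 5.15 percentage points, against 26.5 over all pairs of members. TCONS_00015795 and TCONS_00015796, for example, had Agassiz shares of 36% and 40.4%, with the same libraries high and low as described above.

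Estimated counts were fractional in transforming larvae, as they can be where reads match several models, for 99 of the 200 members (49.5%). This was so for 37.5%, 33.8% and 33.9% of the compared lists in the same order, and for 29.7% of the 10813 transcripts with at least 10 TPM in transforming larvae and 37.5% of all models with counts there. Which models share reads was not analysed here, and levels of single models that do are uncertain. These shares were not tested.

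The median length of the models was 1812.5 bases (quartiles 1105.5 and 2478, range 204 to 17662), against 1640 bases over all transcripts with at least 10 TPM in transforming larvae and 2287 bases over those that peaked in Agassiz. Only 5 members were shorter than 300 bases. The 2 most abundant had 300 and 408 bases, and a short model weighs more in TPM than in counts. By estimated counts the 200 transcripts held 3.04% of the transforming larvae library and 1.14% of the Agassiz libraries, against 3.85% and 1.85% by TPM.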

How the data were processed

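Per the labels' protocols, RNA was isolated with the RNeasy Micro Kit, and polyA libraries that keep the strand were prepared with Illumina's TruSeq kit. The deposited files give, per library and transcript model, estimated counts (expected counts) and TPM. Other deposited columns hold the length and effective length of each model in bases. The submitters' processing notes name kallisto and edgeR. Versions, genome build and the origin of the models: not given in the sources used here.

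Stage and replicate number came from the sample titles. The members follow from TPM averaged per stage. Estimated counts were rounded and fitted with edgeR 4.0.16 under R 4.3.3, with limma 3.58.1: filterByExpr by stage (30661 transcripts, all 200 members), TMM (factors 0.604 to 1.34), trended dispersion, 1 coefficient per stage over 31 libraries, adjustment over all transcripts. Multi-stage contrasts took means of fitted log levels. The SE of an edgeR fold change was worked back, as its absolute log2 value divided by the square root of the F statistic. DESeq2 1.42.0 was an alternative. The fit was also run on counts simulated from the trended dispersion with independent libraries. That run does not cover a shared source of libraries, and no result here rests on it. Ratios with 1 to 3 counts on a side have exact conditional 95% intervals. Other steps used Python 3.11.15, pandas 2.3.3 and SciPy 1.17.1. Counts were called fractional at over 0.01 from a whole number.

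Members and lists were chosen with earlier results of these data known. Named transcripts are the 2 highest in transforming larvae, the 2 highest and 2 lowest in Agassiz share, up to 2 rising and 2 falling most per contrast among called transcripts whose sides did not overlap (at least 10 TPM on the higher side, or 1 TPM before Agassiz), and the 2 with the most unequal Agassiz replicates; others are said to be chosen after their values were seen.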

Additional observations from a re-analysis of the deposited data

How the results depend on the processing

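The rule was met by 239 transcripts. A limit of 10% gave 130, of which 112 were members. The other settings gave 185 (minimum of 20 TPM) to 356 (limit of 30%), with 232 on TMM-scaled CPM and 227 to 245 with 1 replicate left out. The calls from Agassiz to transforming larvae numbered 17 without Agassiz replicate 1 and 29 without Agassiz replicate 2. Each of these fits has 1 library on either side of the contrast, and why the calls fell was not tested. From Spengel to Agassiz, fewer members and a smaller share of all transcripts were also called with 1 replicate left out. In the same way, 59 to 72 members were called between late and early larvae, beside 21.6% to 24.1% of all transcripts. Between larvae and gastrulae 72 to 82 members were called. Adding a replicate block gave 44, 173, 76 and 78 members called, against 43, 169, 77 and 79 without it. The shares of all transcripts called, for those contrasts except larvae against gastrulae, were 2.83%, 18.0% and 25.7%, against 2.36%, 16.6% and 24.8%. The labels do not say what a replicate number shares. Deviations of same-numbered libraries correlated at over 0.1 (0.14 to 0.71) in all 21 pairs among 5 stages (late blastula, early, mid1 and late gastrula, 72hpf tornaria). This was so in 0 of 14 pairs with the mid2 gastrula, and in 6 of the 126 pairs outside those 5 stages. In stages of 2 libraries both pairs give 1 value, and its sign depends on which library is numbered 1. Negative values went down to -0.20, for Krohn with the late gastrula. Krohn stood at -0.19 with the 72hpf tornaria and -0.18 with Heider. A link of Krohn to these stages was not tested. So the numbers may mark a shared source in those 5 stages, as a hint from the data, and they were not taken as pairs across the stages compared. DESeq2's Wald test gave 41, 143, 70 and 91 members called. Its shares of all transcripts, in the same order without larvae against gastrulae, were 3.74%, 15.8% and 21.7%. DESeq2 size factors moved the median log2 fold change of all transcripts from 0.00 to 0.12 for late against early larvae. For larvae against gastrulae it moved from 0.35 to 0.57. With these factors 80 and 83 members were called, beside 24.9% of all transcripts for late against early larvae. For larvae against gastrulae, shares over all transcripts under these settings are not given here, so those member counts are a description only. The share of the Agassiz libraries held by the members was 1.85% of TPM and 1.14% of estimated counts. None of the 10 fold changes of named transcripts recomputed under these settings changed sign; 2 lost their call, both under DESeq2's Wald test (adjusted p 0.124 and 0.303). In arms left with 1 library, that library was assumed to vary like the others. Depth limits the traces before Agassiz, many of which rest on a few counts.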

Other observations

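The 39 transcripts that met the rule but were not among the 200 most abundant had 10 to 16.4 TPM in transforming larvae (median 13.5). Their Agassiz mean ran from 2.71% to 98.3% of that level, with a median of 42.9%, and their adult level had a median of 7.23%. The 41 transcripts of the members' abundance that kept to the limits but were at least as high in Agassiz larvae had 17.1 to 556 TPM in transforming larvae. Their Agassiz mean had a median of 159% of that level and reached 490%, and their adult level had a median of 6.98%. Together with the members' 98.1% and 100.7% on the other side of the border, these values are given as a description of transcripts chosen by the same measure.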
